A study of Mus musculus with 6 samples.

Results

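The 10 genes described here encode the LKB1 complex and the AMPK subunits of the mouse: Stk11, Strada, Stradb, Cab39, Prkaa1, Prkaa2, Prkab1, Prkab2, Prkag1 and Prkag2. They were chosen by symbol, though with earlier results of these data known, and all 10 were found among the 21965 genes of the deposited table. RNA was sequenced from 6 libraries labelled as mouse lung tissue, 3 labelled Aa-cko and 3 labelled Aa-flox, and each gene has an FPKM value per library, that is, fragments scaled by the length of the gene and the depth of the library. The series title names Lkb1 and group 2 innate lymphoid cells, but the labels give no strain, age, sex, treatment or time, do not expand Aa, and name neither the deleted gene nor the Cre that the label cko implies. Both groups share the labelled tissue and nothing else that the labels state. Whether the 3 libraries of a group stem from different mice is not stated, so the p-values speak of the spread among these libraries, which may be technical.

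LKB1 is a serine/threonine kinase that works as a complex of 3 proteins. The pseudokinase STRAD (Strada or Stradb) and the scaffold MO25 (Cab39 or Cab39l) hold it in its active form. The complex phosphorylates a threonine in the activation loop of AMPK, an energy sensor made of a catalytic alpha, a scaffolding beta and an AMP-binding gamma subunit, each with several isoforms. Active AMPK restrains lipid and protein synthesis and favours autophagy and mitochondrial turnover, and in lymphocytes LKB1 is known for its part in metabolism, survival and cytokine output.

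Markers of lung epithelium were low for the labelled tissue, and markers of immune cells moved with the group. Spacing of low values put depth at 14.4, 16.97 and 16.3 M fragments for Aa-cko, against 16.4, 16.8 and 17.7 M for Aa-flox. Type 2 alveolar cell markers (6 genes, among them the surfactant gene Sftpc) summed to between 10.7 and 13.8 FPKM in Aa-cko and between 6.86 and 9.37 in Aa-flox. Of these, Slc34a2 and Lamp3 were near 0 in every library. Of the 4 type 2 markers tested, 2 were higher in Aa-cko (Sftpb and Sftpd) and 0 lower, so these markers moved with the group as well. T cell markers (9 genes) summed to between 598 and 665 FPKM in Aa-cko and between 1244 and 1479 in Aa-flox, with 7 of 9 lower. B cell markers (5 genes) summed to between 151 and 189 FPKM, against between 62.2 and 84.7, with 5 of 5 higher. Alveolar macrophage markers summed to between 6016 and 8161 FPKM, against between 2500 and 2930, with 7 of 7 tested higher. Most of this sum was Chil3 alone, at 5552 to 7609 FPKM in Aa-cko and 2316 to 2714 in Aa-flox. Monocyte markers had 4 of 4 higher, and group 2 innate lymphoid cell markers 4 higher and 3 lower of 8. Immature thymocyte markers had 2 lower of 4 tested, among them Dntt (60.3 FPKM in Aa-cko, 92.7 in Aa-flox). Endothelial markers had 1 higher of 2 tested, and 0 of 3 tested fibroblast markers were called. Of all tested genes 42.4% were called at an adjusted p under 0.05 in the limma test given below, 23.2% lower and 19.2% higher. The part of cell makeup in the values below was not tested, and in such bulk samples fewer cells of a type and less RNA per cell cannot be told apart.

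The site through which the complex acts on AMPK is shown first, because the catalytic subunit is the LKB1 substrate and only its alpha 1 gene was read above 1 FPKM. The coding bases around the activation loop threonine codon (in capitals) come from the GENCODE transcripts on mm10. In Prkaa1 it is codon 183 of the longest coding sequence (chr15:5169937-5169999, plus strand), and in Prkaa2 codon 172 (chr4:105049351-105049413, minus strand), each stretch within 1 exon. Of the 63 bases shown, 9 differ between the genes.
Prkaa1: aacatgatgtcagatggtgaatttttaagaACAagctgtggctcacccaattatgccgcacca
Prkaa2: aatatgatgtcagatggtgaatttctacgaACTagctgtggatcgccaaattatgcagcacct
Over their whole coding sequences the genes share 71.2% of 1629 aligned bases. The longest common run, sought over whole transcripts with their untranslated parts, is 35 bases. The pairs Prkab1 and Prkab2 (73.4%), Prkag1 and Prkag2 (70.0%), Strada and Stradb (60.4%) and Cab39 and Cab39l (75.5%) have longest common runs of 14 to 23 bases, and how the authors counted reads that match both members is not stated.

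Stk11, which encodes LKB1 itself, showed no detectable difference between the groups. It lies on chromosome 10 from 80115803 to 80130682 (plus strand, mm10) and read 62.7, 61.7 and 53.7 FPKM in Aa-cko, against 64.1, 55.8 and 51.8 FPKM in Aa-flox. The groups overlap across their whole ranges, and the gene stood above 87.8% of tested genes in Aa-cko and 86.8% in Aa-flox. On the log2 scale the difference was 0.05 ± 0.11 (SE, limma adjusted p = 0.721), and its 95% interval ran from -0.196 to 0.304. About 4020 to 4830 fragments lay behind each value, so counting error was small beside the spread of libraries. A value for the whole gene cannot reveal the loss of a few exons, and 232 bases of its exons overlap the antisense gene Cbarp, from which unstranded reads cannot be told apart. The label cko thus could not be checked from Stk11, and the groups are called by their labels throughout.

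**Figure D1:**
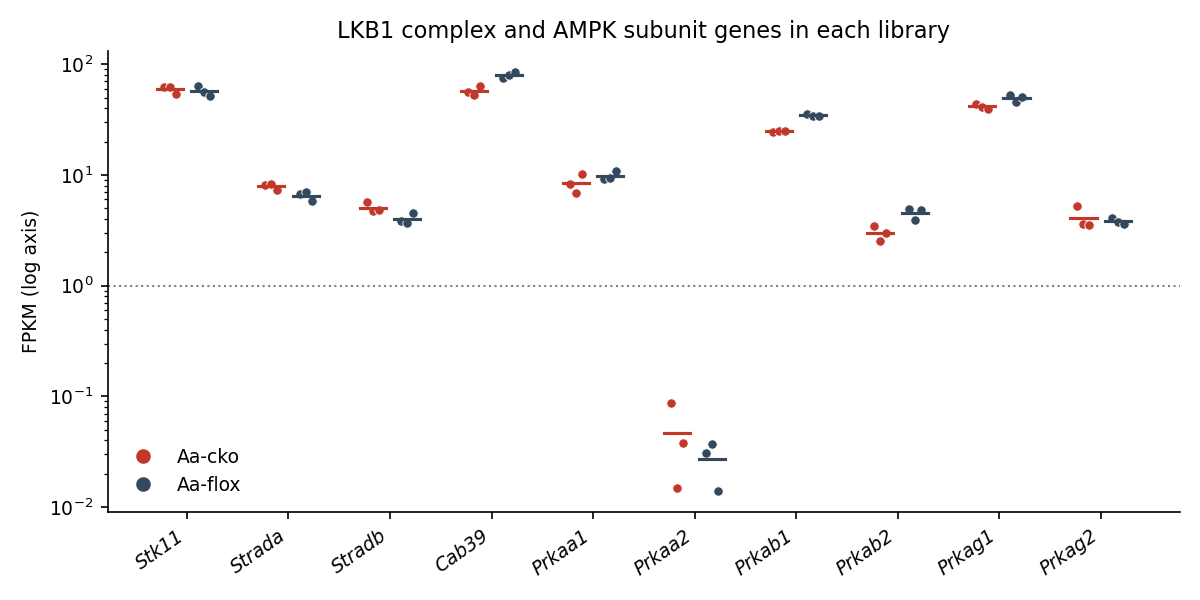
FPKM (log axis) of the 10 genes in each library, Aa-cko in red and Aa-flox in dark blue, with horizontal bars at the group means and a dotted line at 1 FPKM. The Aa-cko libraries lie below all Aa-flox libraries for Cab39, Prkab1, Prkab2 and Prkag1 and above them for Strada and Stradb, and Prkaa2 stays below 0.1 FPKM in each library.

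The pseudokinase partners read higher in Aa-cko without passing the test. Strada (chromosome 11, 106163330 to 106202168, minus strand), the STRAD alpha gene, read 8.07, 8.32 and 7.25 FPKM in Aa-cko, against 6.75, 6.97 and 5.80 FPKM in Aa-flox. Stradb (chromosome 1, 58973522 to 58995715, plus strand), the STRAD beta gene, read 5.68, 4.71 and 4.83 FPKM in Aa-cko, against 3.83, 3.67 and 4.55 FPKM in Aa-flox. For each gene all 3 Aa-cko libraries lay above all 3 Aa-flox libraries, by a narrow gap. The log2 fold changes were 0.24 ± 0.13 (adjusted p = 0.144) for Strada and 0.28 ± 0.13 (adjusted p = 0.125) for Stradb, with 95% intervals from -0.036 to 0.523 and from -0.024 to 0.576. With all libraries shifted to the same median, which moved the median of all genes from -0.05 to 0.04, Stradb passed (0.37, adjusted p = 0.0412). Strada shares 158 exonic bases with its neighbour Ccdc47 on the same strand.

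Cab39, the MO25 alpha scaffold that locks LKB1 and STRAD together, was lower in Aa-cko. It lies on chromosome 1 from 85793441 to 85851576 (plus strand) and read 55.5, 52.6 and 64.0 FPKM in Aa-cko, against 75.6, 80.5 and 85.5 FPKM in Aa-flox. The groups do not overlap, and the Aa-cko mean was 71.2% of the Aa-flox mean (57.3 ± 5.91 and 80.5 ± 4.99 FPKM, SD, n = 3 each). This was a log2 fold change of -0.49 ± 0.11 (limma adjusted p = 0.00511), and it stayed between -0.58 and -0.39 with adjusted p of at most 0.0289 in the 17 alternatives run. Its paralog Cab39l, the MO25 beta gene, read higher, with 7.22 ± 0.0737 FPKM in Aa-cko and 5.69 ± 0.954 FPKM in Aa-flox, and did not pass (log2 0.31 ± 0.14, adjusted p = 0.0954). It passed after upper quartile scaling (adjusted p = 0.0406) and after a shift to the same median (adjusted p = 0.0328).

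Of the catalytic subunits, Prkaa1 (AMPK alpha 1) carried nearly all of the signal. It lies on chromosome 15 from 5143861 to 5181899 (plus strand) and read 8.21, 6.80 and 10.3 FPKM in Aa-cko, against 9.20, 9.46 and 10.9 FPKM in Aa-flox. The Aa-cko libraries spread more widely, with the third within the Aa-flox range and the other two below it. The log2 fold change was -0.22 ± 0.15 (adjusted p = 0.277), with a 95% interval from -0.558 to 0.124, wide enough to hold a change as large as that of the beta subunits below. Prkaa2 (AMPK alpha 2, chromosome 4, 105029874 to 105109890, minus strand), the isoform known from heart, skeletal muscle and liver, read 0.088, 0.015 and 0.038 FPKM in Aa-cko, against 0.031, 0.037 and 0.014 FPKM in Aa-flox. It has 1 annotated transcript, and at the depths above these values come to 10, 2 and 5 fragments in Aa-cko and 4, 5 and 2 in Aa-flox, each within 0.07 of a whole number. At such counts no difference between the groups was detectable, and the gene did not reach the filter for the test. Heart and skeletal muscle markers were low too, though each above Prkaa2 in its group means, with 6 genes summing to between 0.898 and 1.28 FPKM in Aa-cko and between 0.751 and 1.06 FPKM in Aa-flox. Prkaa1 made up 98.9 to 99.8% of the summed alpha FPKM in Aa-cko and 99.6 to 99.9% in Aa-flox.

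Each of the beta subunit genes, whose products tether alpha to gamma and bind glycogen, was lower in Aa-cko. Prkab1 (AMPK beta 1, chromosome 5, 116013586 to 116024508, minus strand) read 24.4, 25.0 and 24.9 FPKM in Aa-cko, against 35.5, 34.4 and 33.7 FPKM in Aa-flox. Relative to their means these were the tightest groups among the 9 genes above 1 FPKM, far apart beside their spread, and the Aa-cko mean was 71.7% of the Aa-flox mean (24.8 ± 0.316 and 34.5 ± 0.921 FPKM, SD, n = 3 each). This was a log2 fold change of -0.46 ± 0.09 (limma adjusted p = 0.00322), with adjusted p of at most 0.0204 over 17 alternatives. Prkab2 (AMPK beta 2, chromosome 3, 97658193 to 97673812, plus strand), known from muscle, read 3.42, 2.52 and 3.004 FPKM in Aa-cko, against 4.88, 3.90 and 4.77 FPKM in Aa-flox. The groups do not overlap, but the lowest Aa-flox library lies close to the highest Aa-cko library. The Aa-cko mean of Prkab2 was 66.0% of its Aa-flox mean. The log2 fold change was -0.47 ± 0.14 (adjusted p = 0.0238), and the call ended without Aa-cko replicate 2 (adjusted p = 0.0669), without Aa-flox replicate 1 (0.0762) and without Aa-flox replicate 3 (0.0746). On log2(FPKM + 0.1) the change of Prkab2 was -0.59, against -0.48 for Prkab1, so their closeness depends on the pseudocount. The Prkab2 values rested on about 218 to 430 fragments each, against about 1070 to 1830 for Prkab1. The beta genes summed to 27.8, 27.5 and 27.9 FPKM in Aa-cko, against 40.4, 38.3 and 38.5 FPKM in Aa-flox.

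Of the gamma subunits, which bind AMP, ADP and ATP and so sense energy, neither passed the test. Prkag1 (AMPK gamma 1, chromosome 15, 98812797 to 98831521, minus strand) read 44.1, 41.4 and 39.2 FPKM in Aa-cko, against 53.1, 45.8 and 50.2 FPKM in Aa-flox. All 3 Aa-cko libraries lay below all 3 Aa-flox libraries, by a small gap, and the log2 fold change was -0.25 ± 0.10 (adjusted p = 0.0668). It passed when columns were rescaled to the same sum (-0.34, adjusted p = 0.0283) and to the same sum without the 20 most abundant genes (-0.30, adjusted p = 0.0402), scalings that moved the median of all genes to -0.13 and -0.10. An antisense gene, B130046B21Rik, overlaps 950 of the 2175 exonic bases of Prkag1, and unstranded counting would mix their reads. Prkag2 (AMPK gamma 2, chromosome 5, 24862744 to 25100642, minus strand), which in humans carries mutations of a heart muscle disease, read 5.25, 3.57 and 3.50 FPKM in Aa-cko, against 4.07, 3.76 and 3.62 FPKM in Aa-flox. Aa-cko replicate 1 stood above all other libraries and the other two below them, and the log2 fold change of 0.07 ± 0.16 (adjusted p = 0.746) turned to -0.09 without that replicate.

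In all, 9 of the 10 genes were tested, and each of these was above 1 FPKM in every library. Of the 9, 3 were lower (Cab39, Prkab1 and Prkab2) and 6 did not pass in limma's test. In that test 0 were higher, also at an unadjusted p under 0.05, although Stradb passed with the same median. Over all 10849 tested genes 42.4% passed in either direction, 23.2% lower and 19.2% higher, so 3 of 9 (33.3%) is near the background and is no result about these genes as a set. The share of higher genes among all calls was 45.3%, and 55.6% with upper quartile scaling or 57.0% with the same median (36.0% with the same sum), under each of which Cab39, Prkab1 and Prkab2 still passed as lower. Libraries of the groups did not overlap for 6 of 9 genes, against 53.3% of all tested genes. Aa-cko lay below for 4 of them, against 29.6% of all tested genes, and above for 2, against 23.8%. The median log2 fold change was -0.22 over the 9 genes and -0.05 over all tested genes. T cell markers, 7 of 9 of which were lower, and macrophage and B cell markers, which were higher, moved with the same contrast.

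**Figure D2:**
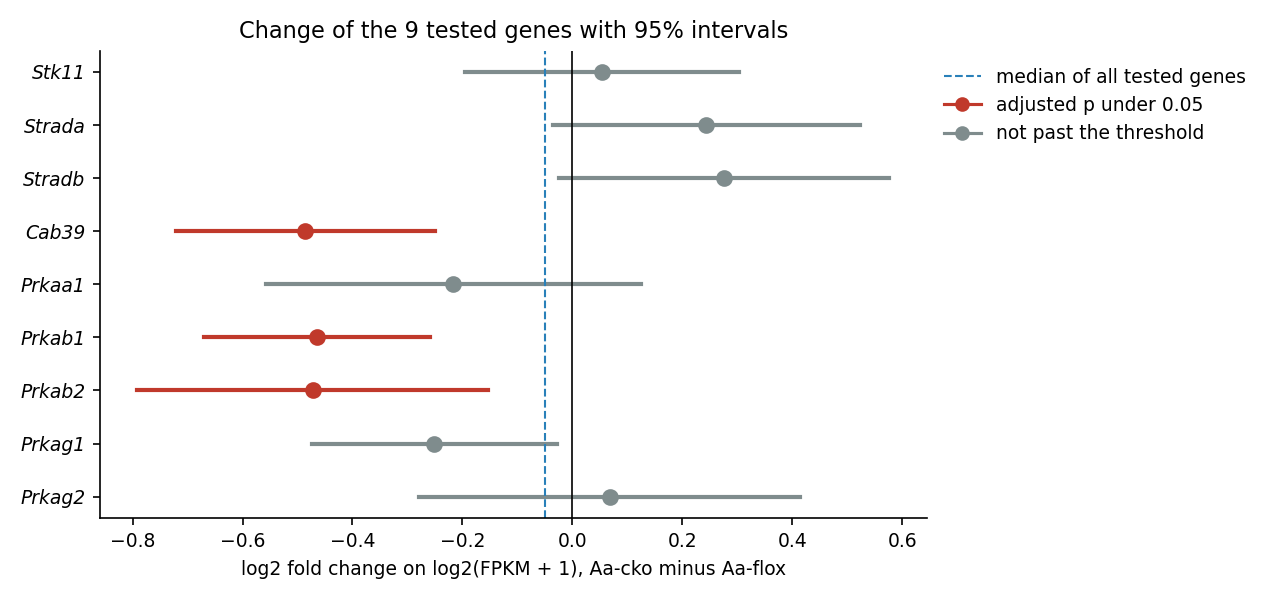
Log2 fold change (Aa-cko minus Aa-flox, on log2(FPKM + 1)) of the 9 tested genes, with points at the estimate, bars for 95% intervals, red where the adjusted p is under 0.05, and a dashed line at the median of all tested genes (-0.05). Cab39, Prkab1 and Prkab2 lie between -0.49 and -0.46, and the intervals of Stk11, Strada, Stradb, Prkaa1 and Prkag2 cross 0.

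Because the genes that fell include both beta subunits and the MO25 scaffold, the bases before their starts are shown with GC boxes in capitals (GGGCGG, or CCGCCC on the other strand). They come from RefSeq (GRCm38.p6) and end before the most upstream start in either annotation.
Cab39 (chr1:85793191-85793440, plus strand): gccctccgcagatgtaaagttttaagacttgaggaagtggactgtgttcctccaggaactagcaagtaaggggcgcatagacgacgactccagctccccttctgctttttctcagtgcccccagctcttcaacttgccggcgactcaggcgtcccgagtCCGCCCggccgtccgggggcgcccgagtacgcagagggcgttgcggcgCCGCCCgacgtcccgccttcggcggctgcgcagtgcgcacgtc
Prkab1 (chr5:116024509-116024678, minus strand): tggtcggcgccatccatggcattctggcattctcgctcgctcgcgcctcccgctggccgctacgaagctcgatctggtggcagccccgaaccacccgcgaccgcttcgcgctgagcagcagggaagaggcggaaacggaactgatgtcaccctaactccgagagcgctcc
Prkab2 (chr3:97657962-97658192, plus strand): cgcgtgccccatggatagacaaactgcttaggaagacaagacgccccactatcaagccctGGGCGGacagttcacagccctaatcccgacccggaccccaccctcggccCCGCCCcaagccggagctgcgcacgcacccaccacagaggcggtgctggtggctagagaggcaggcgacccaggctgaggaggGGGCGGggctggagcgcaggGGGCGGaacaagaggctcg
In the 250 bases before the RefSeq start, Cab39 held 2 GC boxes, Prkab2 held 5, of which 4 lie in the letters shown, and Prkab1 held 0. Among the 10 genes 7 held at least 1 in a listed promoter, against 32.7% of 32851 promoters. The 7 counts genes, of which Prkag2 had several listed promoters, while the 32.7% counts promoters, so the shares are not alike. The window of Strada, 1 of the 7, lies inside the gene as GENCODE annotates it. GC content was 64.8% for Cab39, 65.6% for Prkab1 and 69.2% for Prkab2, against a mean of 53.2%. High GC content did not set these 3 apart, since it was 85.2% for Prkaa1, 70.0% for Prkaa2 and 65.6% for Strada, of which Prkaa2 was not tested and the others did not pass. The 3 genes shared no motif among those searched (also the CCAAT box CCAAT, the CRE core TGACG, the E box CACGTG, the NRF1 motif GCGCATGC and the ETS site CCGGAAG, on either strand). The sole other match in the 3 windows was the ETS site of Prkab1, which lies outside the letters shown and which 6.91% of all promoters hold. All 10 genes had a promoter in the table, and such matches describe letters and not binding.

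Ratios within a library do not depend on how libraries are scaled. Some differed without overlap between the groups, and others overlapped. Among single genes, 53.3% of all tested did not overlap between the groups, but no such share was computed for ratios. Several of these ratios also hold genes whose own libraries did not overlap. Cab39 made up 88.5, 87.8 and 89.9% of the summed MO25 FPKM (Cab39 and Cab39l) in Aa-cko, against 93.9, 93.6 and 92.7% in Aa-flox. The MO25 pair was thus less dominated by Cab39 in each Aa-cko library, with a mean difference of -4.67 percentage points. Stk11 stood at 4.56, 4.74 and 4.44 times the summed STRAD FPKM in Aa-cko, against 6.06, 5.24 and 5.003 times in Aa-flox. Relative to Cab39, Stk11 stood at 1.13, 1.17 and 0.839 in Aa-cko, against 0.848, 0.693 and 0.606 in Aa-flox, where Aa-cko replicate 3 falls just within the Aa-flox range. Relative to Stk11, the STRAD genes thus stood higher in each Aa-cko library and Cab39 lower in 2 of 3 than in any Aa-flox library. No p-value is given for these ratios.

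Among AMPK subunits the isoform shares moved little. Prkab1 made up 87.7, 90.8 and 89.2% of beta FPKM in Aa-cko, against 87.9, 89.8 and 87.6% in Aa-flox, so the groups overlap. The Aa-cko mean was 71.7% of the Aa-flox mean for Prkab1 and 66.0% for Prkab2. With 3 libraries per group the overlap does not show that the isoforms fell equally. Prkag1 made up 89.3, 92.1 and 91.8% of gamma FPKM in Aa-cko, against 92.9, 92.4 and 93.3% in Aa-flox. The groups did not overlap, by a small gap between replicate 2 of each group, and Aa-cko replicate 1 lay lowest. Strada made up 60.8 ± 2.68% of STRAD FPKM in Aa-cko and 61.8 ± 5.05% in Aa-flox (SD, n = 3 each). The summed gamma level was 1.77, 1.64 and 1.53 times the summed beta level in Aa-cko, against 1.42, 1.30 and 1.40 times in Aa-flox, without overlap. Relative to alpha, beta stood at 3.37 ± 0.671 in Aa-cko and 3.98 ± 0.434 in Aa-flox, and these overlap. Gamma stood at 5.56 ± 1.28 times alpha in Aa-cko and 5.45 ± 0.670 times in Aa-flox, which overlap too.

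**Figure D3:**
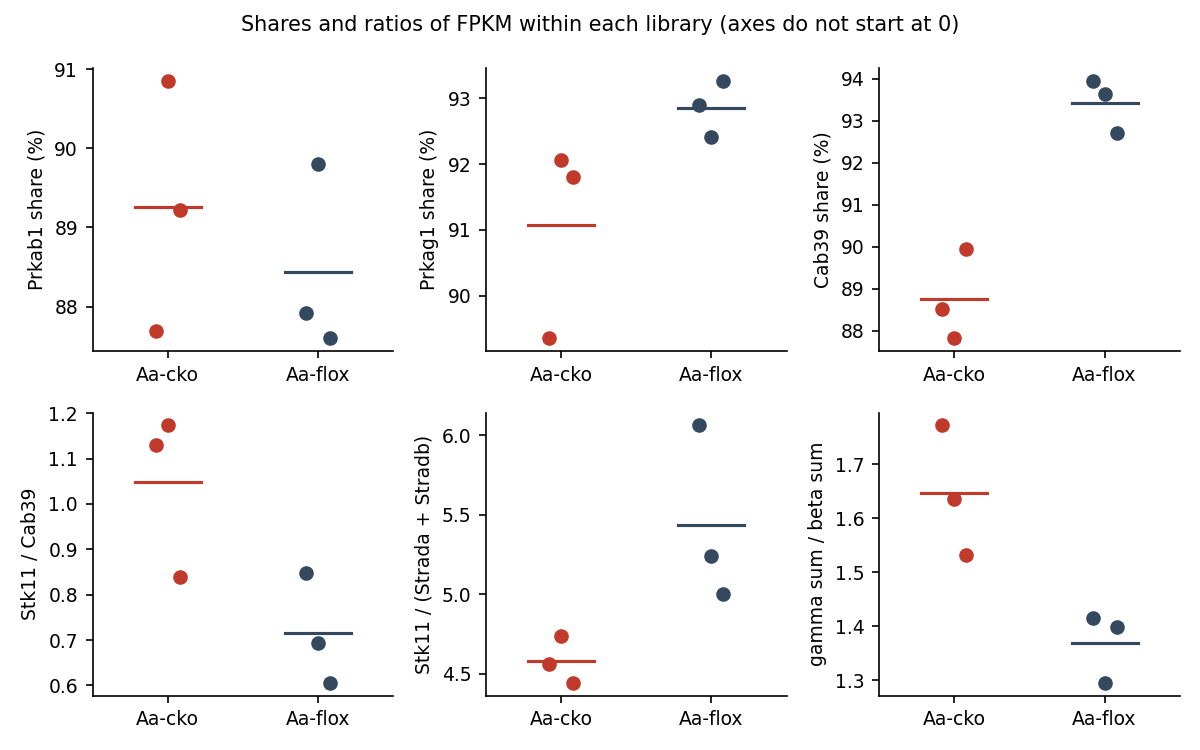
Shares (percent of summed FPKM) and ratios of FPKM within each library, Aa-cko in red on the left and Aa-flox in dark blue on the right, with bars at the means of 3 libraries. The Prkab1 share and the ratio of Stk11 to Cab39 overlap between the groups, and the other 4 measures do not, among them the Cab39 share (87.8 to 89.9% and 92.7 to 93.9%).

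The order of levels per length was much alike in the groups. In Aa-cko it ran Stk11, Cab39, Prkag1, Prkab1, Prkaa1, Strada, Stradb, Prkag2, Prkab2 and Prkaa2, with mean FPKM from 59.4 to 0.047. In Aa-flox it ran Cab39, Stk11, Prkag1, Prkab1, Prkaa1, Strada, Prkab2, Stradb, Prkag2 and Prkaa2, with mean FPKM from 80.5 to 0.0273. Neighbours whose libraries overlapped were Stk11 with Cab39, Prkaa1 with Strada and Stradb with Prkag2 in Aa-cko. In Aa-flox they were Stk11 with Prkag1, Prkab2 with Stradb and Stradb with Prkag2. Cab39 stood above Stk11 in 1 of 3 Aa-cko libraries (replicate 3) and in each Aa-flox library, and Prkab2 moved behind Stradb and Prkag2. Prkaa1, the single abundant catalytic isoform, was the least abundant of the 3 leading AMPK subunits in each group.

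Other regulators of the complex and of AMPK moved both ways. Of 11 listed genes 9 were tested, with 2 higher, 3 lower and 4 not past (median log2 fold change -0.08, against -0.05 over all tested genes). That is 55.6% called, against 42.4% of all tested genes. Map3k7, the kinase TAK1, which has been described as an AMPK kinase, was lower, at 11.2 ± 1.46 FPKM in Aa-cko and 19.9 ± 2.64 in Aa-flox (log2 -0.77 ± 0.14, adjusted p = 0.00179). Axin1, a scaffold that brings LKB1 to AMPK at the lysosome, was lower as well, at 24.1 ± 0.545 FPKM in Aa-cko and 35.5 ± 1.32 in Aa-flox (log2 -0.54 ± 0.09). Ppm1a, a phosphatase that can act on AMPK, was lower by a smaller amount (log2 -0.32 ± 0.10, adjusted p = 0.0343). The Ppm1a call ended with upper quartile scaling (0.109), the same median (0.114), no FPKM filter (0.0592) and no trend or robust moderation (0.0547). The call ended too without Aa-cko replicate 1 (0.131), Aa-flox replicate 2 (0.0707) or Aa-flox replicate 3 (0.14). Camkk1, a calcium-dependent kinase related to the AMPK kinase CaMKK2, was higher, at 3.38 ± 0.269 FPKM in Aa-cko and 1.76 ± 0.188 in Aa-flox (log2 0.66 ± 0.13, adjusted p = 0.00283). Lamtor1, a lysosomal Ragulator subunit on which Axin1 docks, was higher too, at 45.4 ± 4.25 FPKM in Aa-cko and 32.4 ± 0.699 in Aa-flox (log2 0.47 ± 0.10). Prkag3, the gamma 3 subunit gene of skeletal muscle, was listed at 0 in each library.

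Of 30 AMPK substrates and effectors 27 were tested, with 2 higher, 5 lower and 20 not past. That is 25.9% called, against 42.4% of all tested genes, with a median of -0.10, against -0.05. The lower genes with the smallest p were Slc2a1, the glucose transporter GLUT1, Hdac7, a class IIa histone deacetylase, and Tbc1d1, a Rab GTPase-activating protein. Slc2a1 read 56.1 ± 4.56 FPKM in Aa-cko and 124 ± 16.2 in Aa-flox (log2 -1.13 ± 0.12, adjusted p = 0.000129). Hdac7 read 11.3 ± 2.28 FPKM in Aa-cko and 28.2 ± 0.989 in Aa-flox (log2 -1.26 ± 0.14, adjusted p = 0.000182), and Tbc1d1 read 16.4 ± 0.895 FPKM in Aa-cko and 26.8 ± 1.07 in Aa-flox (log2 -0.68 ± 0.10). Ulk1, the kinase that starts autophagy, was higher, at 29.1 ± 5.08 FPKM in Aa-cko and 20.7 ± 1.24 in Aa-flox (log2 0.46 ± 0.13, adjusted p = 0.0197), as was Tbc1d4, a relative of Tbc1d1 (log2 0.43 ± 0.15, adjusted p = 0.0382). The calls of Ulk1 and Tbc1d4 ended when columns were rescaled to the same sum (adjusted p = 0.099 and 0.153). They ended too with the same sum without the 20 most abundant genes (0.0653 and 0.108). The call of Tbc1d4 was also lost with no FPKM filter (0.0815). That of Ulk1 also ended without Aa-cko replicate 1 (0.0726) or Aa-flox replicate 2 (0.074), and that of Tbc1d4 without any single library other than Aa-cko replicate 2 (0.0612 to 0.129). These are transcript levels and do not measure phosphorylation by AMPK.

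Among 12 AMPK-related kinases, which LKB1 activates through the same kind of loop threonine, 8 were tested, with 2 higher, 3 lower and 3 not past. That is 62.5% called, against 42.4% of all tested genes, with a median of -0.16, against -0.05. Sik1, a salt-inducible kinase that restrains CRTC coactivators, was higher, at 43.0 ± 7.91 FPKM in Aa-cko and 26.3 ± 2.97 in Aa-flox (log2 0.68 ± 0.14, adjusted p = 0.00414), as was Nuak2 (log2 1.08). Sik3 was lower, at 38.6 ± 1.44 FPKM in Aa-cko and 51.4 ± 3.59 in Aa-flox (log2 -0.40 ± 0.10, adjusted p = 0.00841), and Sik2 did not pass (log2 -0.10 ± 0.17). The microtubule-affinity kinases Mark4 (log2 -0.46 ± 0.11) and Mark3 (log2 -0.36 ± 0.12) were lower. The Mark3 call ended with upper quartile scaling (adjusted p = 0.0683) and with the same median (0.0684). It ended too without any single library other than Aa-cko replicate 3 (0.0617 to 0.0838). Snrk, a more distant relative, had a log2 fold change of -0.01 ± 0.17, whose sign turned with scaling. Sik2 also changed sign, to 0.085, without Aa-cko replicate 2.

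**Figure D4:**
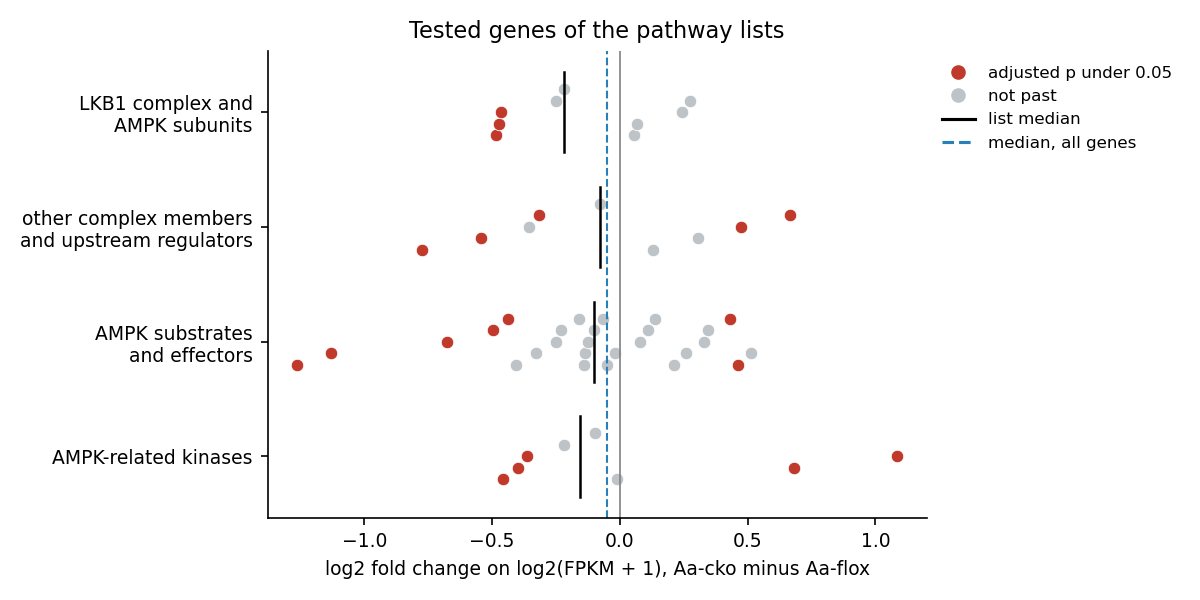
Log2 fold change (Aa-cko minus Aa-flox, on log2(FPKM + 1)) of each tested gene in the LKB1 and AMPK genes and the 3 further pathway lists, red where the adjusted p is under 0.05, with black bars at list medians and a dashed line at the median of all tested genes. Each list holds genes on either side of 0, with called genes between -1.26 and 1.08. The 3 called LKB1 and AMPK genes lie near -0.47 on this scale, which understates low genes such as Prkab2.

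The genes with profiles most like those of 3 members were sought by the mean absolute difference between profiles over the 6 libraries, each profile centred and divided by its own SD. For Stk11 they were Ccdc88b (0.116 SD), Cenpa (0.142 SD) and Cdc42se1 (0.146 SD), none of which passed the test. For Prkab1 they were Mllt1 (0.0332 SD), Eef1e1 (0.0354 SD) and Rrad (0.0367 SD), which were lower in Aa-cko by log2 fold changes of -0.78, -0.92 and -1.55. For Prkaa1 they were Sfpq (0.0585 SD), Dnajc13 (0.0595 SD) and Mindy2 (0.0763 SD), with log2 fold changes of -0.23, -0.29 and -0.13 that did not pass. With 6 libraries in 2 groups, many genes lie close to any such profile, and the direction of these genes follows from the choice.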

How the data were processed

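The source was 1 deposited table of FPKM values computed by the authors, per the file headers, for 21965 mouse genes in 6 libraries. Per the labels' protocols RNA was column-purified and a SMARTer mRNA-Seq kit was used. The submitters' processing notes name the build mm10, while aligner, quantifier, annotation and strand setting were not given in the sources used here. Groups come from the sample titles and columns were matched by name.

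Log2(FPKM + 1) was tested with limma 3.58.1 in R 4.3.3 (trend, robust) over the 10849 genes that reached 1 FPKM in 3 or more libraries. Benjamini-Hochberg adjustment ran over all of them, with 0.05 as the threshold. Fold changes are Aa-cko minus Aa-flox and understate low genes. Beside FPKM the error is an SD, and beside a log2 fold change a standard error. The steps were tested on simulated data with a set dispersion of 0.01. There 50 genes were changed at each of 1.3-, 1.5-, 2- and 4-fold, among 10786 tested. Of these changes 34% of 1.3-fold, 88% of 1.5-fold and 100% of 2-fold were recovered, and 8% of 175 calls were false. Far fewer genes were changed there than were called in the data, so these rates need not hold for the data. Pearson's r over genes was 0.982 to 0.992 between libraries of 1 group, and no columns were identical.

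Depth was the value from 8 to 24 M fragments that made low values of genes with 1 annotated transcript whole. Of held-out low values 89.6 to 96.6% were within 0.1 of whole, against 20% by chance. Fragment numbers use GENCODE M21 exon lengths and are approximate where a gene has several transcripts, and no count test was run.

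Members and lists were chosen with earlier results of these data known. Named were all 10 members, up to 3 called genes per direction and list with the smallest p, Sik1, Sik2, Sik3, Nuak2 and Snrk, and the 3 genes with the most similar profile to each of Stk11, Prkab1 and Prkaa1. Cab39l, Prkag3, the overlapping genes and the neighbours of Stk11 were added after values were seen. Alternatives covered scaling, pseudocount, filter, variance moderation, threshold, a replicate block and leaving out each library. Sequences were handled with Biopython 1.88, tables with pandas 2.3.3 in Python 3.11.15, and plots with matplotlib 3.10.9. No protein sequences were used here.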

Additional observations from a re-analysis of the deposited data

How the results depend on the processing

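With an adjusted p under 0.01, 2748 genes were called, against 4602 at 0.05, as follows from a stricter threshold. Leaving out each library gave 3238 to 4756 called genes and 2 to 3 called LKB1 and AMPK genes. Across the alternatives run, Cab39, Prkab1, Strada and Prkaa1 kept direction and side of the threshold. Prkab2 lost its call without Aa-cko replicate 2 and without Aa-flox replicates 1 and 3. It also missed an adjusted p under 0.01, and it was not tested with a filter of 5 FPKM. Stk11, never past, turned to -0.039 with the same column sum and to -0.014 without Aa-flox replicate 3 (-0.014 to 0.14 without single libraries). Prkag2, also never past, turned to -0.0071 with the same column sum and to -0.086 without Aa-cko replicate 1 (-0.086 to 0.15). Snrk turned to 0.071 with upper quartile scaling, 0.083 with the same median, 0.15 without Aa-cko replicate 2 and 0.083 without Aa-flox replicate 3 (-0.15 to 0.15), and Sik2 turned to 0.085 without Aa-cko replicate 2 (-0.21 to 0.085). The cause of these turns was not tested. Of 423 values of 25 other named genes under an alternative, 372 kept direction and side of the threshold, 44 lost the call, 2 gained it and 5 turned. The substrate list had 4 calls at an adjusted p under 0.01 and 11 under 0.1, against 7.

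Whether the replicate numbers pair the libraries is not stated. Deviations from the group means of same-numbered libraries correlated at -0.02, 0.19 and 0.52 over genes. The value of 0.52 was the highest of any pair across the groups, while Aa-cko replicates 1 and 2 correlated best with another number. Deviations within a group sum to 0, so these values are not independent and do not settle the pairing. With a replicate block 5509 genes passed, against 4602 without it. Among the 5509 were 4 of the LKB1 and AMPK genes, with Prkag1 added (limma adjusted p = 0.0331), and 12 substrates.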

Other observations

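The gene neighbourhood of Stk11, chosen after the values were seen, held calls in either direction. Of 11 other genes of the table within 100 kb of Stk11 on chromosome 10, 10 were tested, with 3 higher, 2 lower and 5 not past, which is near the 42.4% of all tested genes called. Gpx4, which encodes the glutathione peroxidase that reduces lipid hydroperoxides and restrains ferroptosis, starts 68.6 kb before Stk11. It read 85.7 ± 20.2 FPKM in Aa-cko and 237 ± 43.5 in Aa-flox (SD, n = 3 each, limma log2 fold change -1.47 ± 0.18, adjusted p = 0.000258). Sbno2, which lies between them, was higher, at 33.7 ± 1.52 FPKM in Aa-cko and 26.1 ± 0.362 in Aa-flox (log2 0.35 ± 0.09, adjusted p = 0.0132), a call that ended with the same column sum (0.0872) and without Aa-cko replicate 1 (0.0692). Cbarp, whose exons overlap the end of Stk11, did not pass (log2 0.17 ± 0.13, adjusted p = 0.311), nor did Atp5f1d (log2 0.23 ± 0.14, adjusted p = 0.222). Fam174c was higher (log2 0.66 ± 0.13, adjusted p = 0.0035). Arhgap45 (0.29) and Midn (-0.53) passed with adjusted p of 0.0314 and 0.0329, and each lost its call without 4 or more of the 6 libraries in turn.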
